A study of Populus ussuriensis with 12 samples.

Results

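The response of PuHox52-overexpressing poplar roots to low nitrogen (N) was followed over 23382 genes. These are the genes of a deposited table of 34699 IDs with 1 FPKM or more in 3 or more of the 6 overexpression libraries, FPKM being fragments counted on a gene, set relative to its length and to the library's mapped total. The libraries came from roots of Populus ussuriensis propagated clonally in vitro, all overexpressing PuHox52. Stem pieces with 1 internode were first grown on woody plant medium, and consistently developed plants were then kept for 3 weeks on normal-N or on low-N medium. This gave 3 libraries a side, which the design text calls biological replicates. Wild-type roots under the same N supplies, also with 3 libraries each, serve as the comparison. The labels give neither the promoter of the transgene, nor the number of independent lines, nor the N concentrations, nor whether plants were pooled.

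Nitrogen is the mineral nutrient that roots take up in the largest quantity, mainly as nitrate and ammonium. Roots short of it change the expression of transporters and of enzymes that build N into amino acids, and alter their branching and growth. PuHox52 is a homeodomain-leucine zipper transcription factor, known from work on adventitious root formation in this species. The table lists gene models by Potri ID, the naming of the Populus trichocarpa genome, without gene names or functions, and no annotation was used here. Genes are therefore described by ID, level and position in the ID order, and neither the roots' tissue identity nor the overexpressed gene could be checked by name.

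The 2 N supplies differed by library depth as well as by medium. The most frequent ratios between low FPKM values gave a depth of 0.859 to 1 in the normal-N overexpression libraries and 0.369 to 0.406 in the low-N ones, relative to normal-N replicate 1, and the means differed 2.38-fold. Absolute depth is unknown, so counting intervals cannot be given. At least 1 FPKM was reached by 22119 to 22188 genes at normal N and by 23145 to 23456 at low N. Libraries were made and sequenced at 2 companies, without a statement of which library went where. In any comparison between N supplies, the supply and a batch of libraries cannot be told apart.

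Potri.014G103000 stood far above wild type in relative terms at normal N, and was singled out after its values were seen. It stood at 2392, 2274 and 2251 FPKM in overexpression roots under normal N and 1557, 2310 and 1091 under low N. The groups overlapped, since low-N replicate 2 lay within the normal-N range, and the change of -0.55 ± 0.279 on the log2 scale (SE) did not pass the test (limma, Benjamini-Hochberg adjusted p = 0.105). The fall passed with median-of-ratios scaling (-0.80, limma adjusted p = 0.0252), and also without low-N replicate 2 (-0.82, limma adjusted p = 0.017). Without low-N replicate 3 it was -0.28 (limma adjusted p = 0.364), with library weights -0.40 (limma adjusted p = 0.185) and with quantile normalization -0.47 (limma adjusted p = 0.158). In wild type this ID had mean FPKM of 7.39 ± 0.719 under normal N and 44.9 ± 14.6 under low N (SD, n = 3).

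Low N was accompanied by a change in most of the 23382 genes. At an adjusted p under 0.05 in limma, on log2(FPKM + 1) values, 16628 of them (71.1%) differed between low and normal N, close to the 69.7% of all 24570 genes tested over the 12 libraries. With the deposited values 11124 rose, against a background of 46.9% risen among all genes tested, and 5504 fell, against 22.8%. Many of these changes were small: 5959 calls (35.8%) were under 0.5 on the log2 scale, and the median size of a called change was 0.63. Since FPKM + 1 was used, changes of weakly expressed genes are understated. Whole roots were measured, so fewer cells of a type and less RNA per cell cannot be told apart.

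The balance of risen and fallen genes rested on the scaling. Rises made up 66.9% of the calls as deposited, and 49.5% under both median-of-ratios scaling and quantile normalization. The median of all members was 0.21 on the log2 scale with the deposited values and 0.00 after either scaling. Under all 3 scalings, 7217 genes were called higher and 5503 lower at low N, counted over the members alone. No share over all genes tested was taken for these counts, so they say nothing particular to the members. Median-of-ratios scaling moved the members down together, so calls of fallen genes could hardly be lost to it. Quantile normalization lowered the median but moved some IDs up, such as Potri.010G236500 from -2.25 to -2.18. The fall of Potri.019G100001 was no longer called there.

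Without regard to the test, all low-N libraries lay above all normal-N libraries for 11570 genes, against 48.9% of all genes tested, and below them for 5864, against 24.4%. Rises of 1 log2 unit or more, a doubling on the FPKM + 1 scale, were called for 2756 genes, with 11.4% among all genes tested, and falls of that size for 1131, with 4.62%. The balance at this size turned with the scaling: 1749 rose and 1778 fell by at least 1 after median-of-ratios scaling, and 1617 rose and 1708 fell after quantile normalization. Called by at least 1 under all 3 scalings were 1492 risen and 1131 fallen genes, counted over the members alone. Shares over all genes tested were taken with the deposited values only. The risen genes supplied 5.02%, 5.01% and 4.94% of all FPKM in the normal-N libraries and 14.3%, 14.4% and 15.2% in the low-N libraries. The fallen genes supplied 11.7%, 11.8% and 11.9% in the former and 3.44%, 3.62% and 3.54% in the latter. These shares describe genes chosen for their change. Replicates lay close together on both sides.

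**Figure D1:**
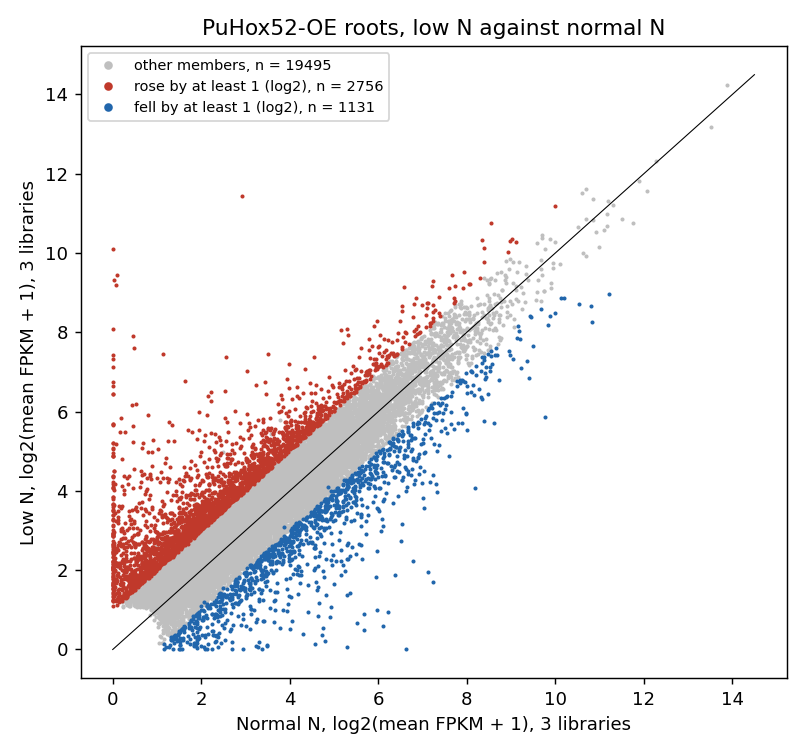
Mean level of each of the 23382 genes in overexpression roots at low N (vertical axis) against normal N (horizontal axis), both as log2(mean FPKM + 1) over 3 libraries, with 2756 genes that rose by 1 log2 unit or more in red and 1131 that fell by at least 1 in blue. The line marks equal levels, and red points reach farthest from it at the left edge, where normal-N values are at or near 0.

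Most genes were detected at both N supplies. At least 1 FPKM was found in all 6 libraries for 20817 genes, in the 3 low-N libraries alone for 968 and in the 3 normal-N libraries alone for 288, with 1309 in other patterns. The genes found on 1 side alone passed the filter through the group where they are high, so that 954 of the 968 rose and 279 of the 288 fell follows in part from the filter. Among genes with at least 1 FPKM in all 6 libraries, 14646 (70.4%) were called, close to the 69.7% of all genes tested. At the threshold, the third highest value of a gene was 1.0002 FPKM for the lowest member and 0.9997 for the highest ID left out.

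Genes listed at 0 in all 3 libraries of one N supply and at 1 FPKM or more in all 3 of the other were mostly those seen at low N. There were 102 of them, with a median low-N mean of 6.27 FPKM and a highest of 1108, against 12 listed at 0 at low N, whose normal-N means ran from 1.23 to 97.1 FPKM. Wild-type values of these genes mostly lay on the same sides of 1 FPKM. Of the 102 genes, all 102 had a wild-type mean under 1 FPKM under normal N and 93 had at least 1 FPKM at low N, and of the 12 others all lay under 1 FPKM in wild type at low N and 9 had at least 1 FPKM there at normal N. No fold is given for genes listed at 0.

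Most of the strongest rises started below 1 FPKM. Rises of 3 log2 units or more were called for 143 genes, of which 101 lay under 1 FPKM in every normal-N library and 43 were listed at 0 there. The median of their means went from 0.265 to 23.4 FPKM. Falls of 3 log2 units or more were called for 58 genes, whose median went from 38.4 to 1.58 FPKM, and 20 of them lay under 1 FPKM in every low-N library. The 101 and the 20 genes passed the filter only through the group where they are high, and the directions were not compared by a test. Low-N and normal-N libraries did not overlap for any of the 143 and 58 genes, which were chosen for the size of their change. Over all genes tested, all low-N libraries lay above for 48.9% and below for 24.4%. No share over all genes tested was taken for changes of this size.

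The share of fallen genes differed along the range of expression. Below a mean of 5 FPKM over the 6 libraries, 48.3% of 7071 genes were higher and 16.0% lower at low N. Between 20 and 100 FPKM, 43.6% of 5279 genes were higher and 32.2% lower, and between 100 and 1000 FPKM the shares were 49.1% and 34.3% of 1013 genes. Among the 32 genes with 1000 FPKM or more, 10 rose and 13 fell. The difference between levels was present after median-of-ratios scaling too, with 38.5% higher and 23.6% lower below 5 FPKM and 28.6% higher and 47.3% lower between 20 and 100 FPKM. The median log2 change went from 0.13 to -0.16 between these classes under that scaling. The lower depth at low N bears most on weakly expressed genes, and its part in this pattern was not tested. In the low-N libraries alone 968 genes reached 1 FPKM, and in the normal-N libraries alone 288. These passed the filter through the group where they are high, and their part in the pattern was not tested either.

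**Figure D2:**
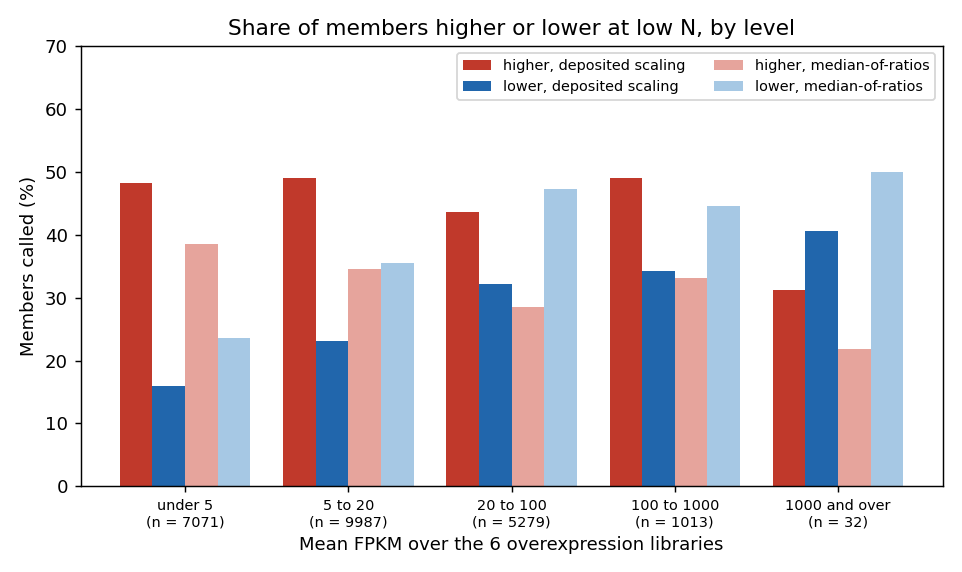
Share of genes called higher or lower at low N (vertical axis, percent) in 5 classes of mean FPKM over the 6 overexpression libraries (horizontal axis), with the deposited values in dark and median-of-ratios scaling in light bars. With either scaling the share of lower genes is smallest in the class under 5 FPKM, at 16.0% and 23.6%.

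Low-N libraries varied more among themselves than normal-N libraries. The median SD of a gene within its group was 0.0754 at normal N and 0.125 at low N on the log2 scale. Among the 6324 genes that averaged 20 FPKM or more it was 0.051 and 0.0967. In these, 130 (2.06%) differed by more than 1 on the log2 scale between low-N replicates 1 and 3, 57 between replicates 1 and 2 and 49 between replicates 2 and 3, whereas 2 to 8 did so between any pair of normal-N libraries. The difference between low-N replicates 1 and 3 went both ways, with 69 genes higher in replicate 1 and 61 higher in replicate 3.

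The variation within low N was small beside the difference between the N supplies. The first principal component of the 6 libraries held 89.0% of the variance and set normal N (-67.1 to -63.7) apart from low N (63.9 to 66.1). The second held 5.64% and spread the low-N replicates from 29.4 to -27.2, while normal-N libraries stayed between -0.42 and 0.35. Of the 2756 risen genes, 233 (8.45%) had low-N values spanning more than 1 on the log2 scale, and 64 of the 1131 fallen genes (5.66%), against 3.37% of all 23382 genes.

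The IDs with the largest change in FPKM were named by rule. Potri.013G131200, the most abundant ID of the overexpression libraries, stood at 14852, 14900 and 15558 FPKM under normal N and 20533, 20931 and 16611 under low N. The groups did not overlap, but low-N replicate 3 lay close to the normal-N values. Its rise was 0.35 ± 0.0957 on the log2 scale (SE; limma adjusted p = 0.00535). It did not pass after median-of-ratios scaling, at 0.10 (limma adjusted p = 0.389), and quantile normalization sets the top rank of every library to the same value.

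Potri.016G057600 had by far the larger relative rise. It was at 6.95, 6.95 and 5.79 FPKM under normal N and 1987, 2820 and 3539 at low N, a 424-fold higher mean. The low-N libraries spanned a wide range, yet each stood far above every normal-N library. The log2 change was 8.49 ± 0.345 (SE; limma adjusted p = 1.54e-08). At low N it supplied 0.41% of all FPKM, and by its mean over the 6 libraries it ranked 23 among the members.

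Among fallen IDs, Potri.019G100001, the second most abundant, went from 11664, 11875 and 11767 FPKM at normal N to 9659, 9386 and 8788 at low N. All low-N libraries lay below all normal-N libraries, and the fall was -0.34 ± 0.112 on the log2 scale (SE; limma adjusted p = 0.0151). It was -0.60 with median-of-ratios scaling and 0 with quantile normalization, where its rank is held by the same value in the 6 libraries. Potri.010G236500 fell from 2240, 2396 and 2446 FPKM to 541, 507 and 446, a 4.74-fold lower mean, with no overlap and little spread on either side. Its log2 change was -2.25 ± 0.105 (SE; limma adjusted p = 1.75e-09), and -2.50 and -2.18 after the other scalings.

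**Figure D3:**
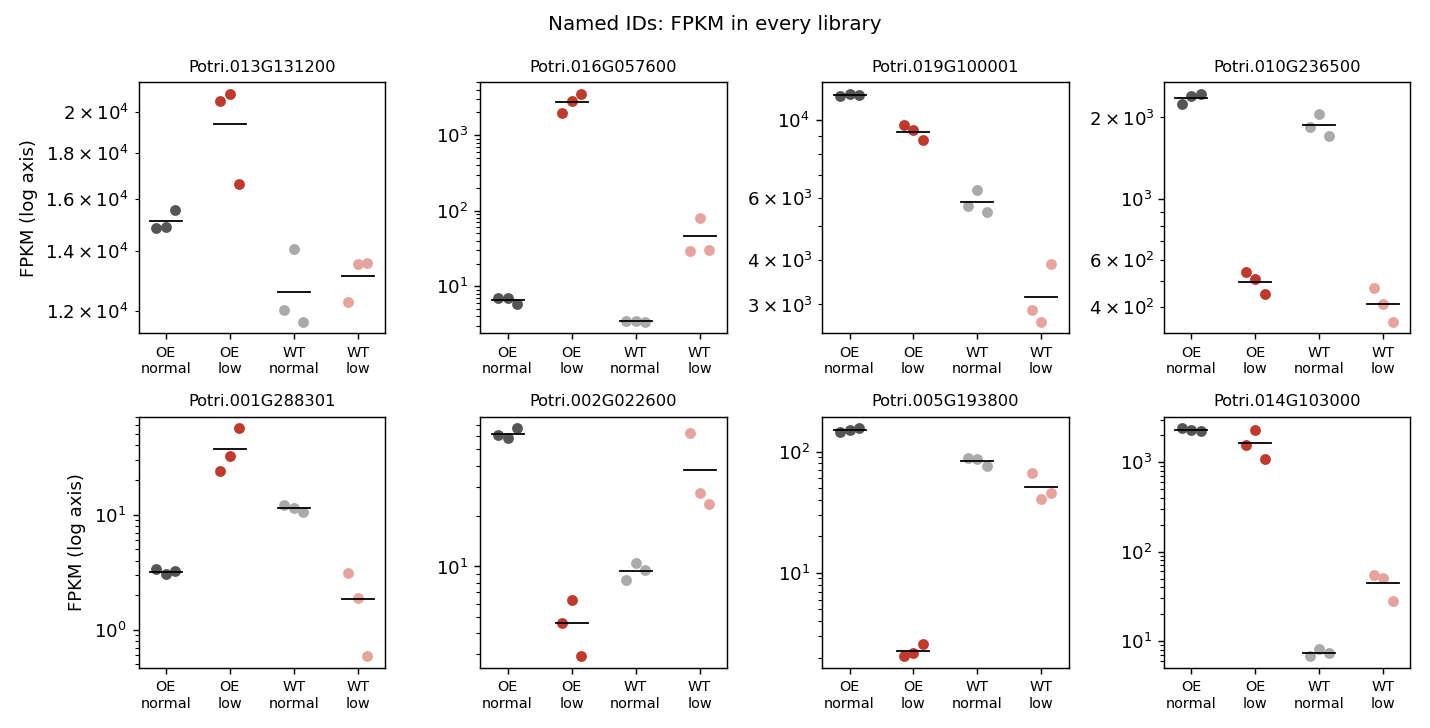
FPKM of the 8 named IDs in every library (log axis, scale set for each panel), with overexpression roots in dark and wild type in light colours, grey for normal N and red for low N, and bars at the group means. Potri.016G057600 lies between 1987 and 3539 FPKM in overexpression roots at low N and between 29.4 and 81.0 in wild type at low N.

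Large rises clustered in the order of the IDs. The digits before the letter G in a Potri ID stand for the chromosome, and the number after it counts upwards along it, so that neighbouring IDs are neighbouring gene models. Runs were taken over the members alone, so IDs that failed the filter were skipped within them. Of the 2756 genes that rose by 1 log2 unit or more, most stood alone among the measured neighbours, in 1884 runs of a single ID, and 350 runs held 2 to 5 IDs. No run held 6 to 9, but 6 runs held 10 or more, and together these contained 75 genes. Falls of at least 1 formed shorter runs, 881 of 1 ID, 112 of 2 or 3, and 2 of 4 or more, the longest with 6. The runs were chosen after their values were seen and are described without a test. Of the 75 genes in the risen runs, 38 lay under 1 FPKM in every normal-N library, 11 of them listed at 0. These 38 passed the filter only through the low-N libraries.

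The longest run extended from Potri.013G136466 to Potri.013G142201 and held 20 measured genes among 24 deposited IDs. The summed level of the 20 was 29.6, 28.8 and 43.2 FPKM in the normal-N libraries and 429.4, 413.4 and 386.2 in the low-N libraries. Each of the 20 genes was higher in all low-N than in all normal-N libraries, which their choice for a rise nearly fixes. This held for 48.9% of all genes tested. The log2 changes ran from 1.38 to 4.42. A second run under the same digits, from Potri.013G161900 to Potri.013G163300, held 11 genes with sums of 8.18, 9.13 and 18.7 FPKM under normal N and 109.9, 117.1 and 114.7 under low N.

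The run from Potri.007G062041 to Potri.007G062402 held 10 genes, among 19 deposited IDs, and the highest values. It summed to 148.8, 166.6 and 317.6 FPKM under normal N and to 2568, 2476 and 2569 at low N. Within it the behaviour was uneven. Potri.007G062081 already had 139.4, 157.8 and 305.9 FPKM under normal N and rose by 1.85 on the log2 scale, while Potri.007G062041 was listed at 0 in all 3 normal-N libraries and had 36.0, 74.0 and 39.7 FPKM at low N.

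From Potri.011G073900 to Potri.011G074700, 10 genes among 11 deposited IDs summed to 120.1, 96.5 and 323.4 FPKM under normal N and to 1293, 769.7 and 864.8 under low N. The 13 genes from Potri.008G223000 to Potri.008G224701 summed to 21.5, 14.1 and 34.7 FPKM under normal N and to 231.3, 146.7 and 210.5 under low N. That stretch holds 44 deposited IDs, most of which failed the filter, so it is no unbroken block. The 11 genes from Potri.019G116866 to Potri.019G117800 showed another pattern among libraries: they were even at normal N, at 55.3, 55.0 and 55.5 FPKM, and uneven at low N, at 194.8, 302.0 and 644.6. In that run the sum was highest in low-N replicate 3, whereas in the runs of the 008G and 011G IDs it was highest in replicate 1. For the 011G run this held for the sum alone. The median of its genes was 7.63, 7.42 and 9.56 FPKM in low-N replicates 1, 2 and 3.

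Several features went with these runs. In 42 of the 75 genes (56%) the highest normal-N value was that of replicate 3, which held for 31.4% of all members. The sum of replicate 3 was the highest of the normal-N libraries in all 6 runs, though barely so in the run of 019G IDs. By the median of the genes replicate 3 was highest in the runs of 007G, 008G and 013G IDs. It was not in the run of 011G IDs (0.584, 0.596 and 0.493 FPKM) or of 019G IDs (3.85, 2.72 and 3.25). In wild type 68 of the 75 genes were also called higher at low N, against 45.6% of all genes tested and 83.8% of all 2756 genes that rose by at least 1. Of the 75, 48 had an ID number that is not a multiple of 100, the step by which most IDs count. Such IDs made up 6.82% of the members and 417 of the 2756 genes that rose by at least 1. Reads shared between near-identical copies could not be examined with FPKM values alone, so the values of single IDs within a run are uncertain. Without the 75 genes 2681 rises of at least 1 were left, and 11049 rises in all.

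**Figure D4:**
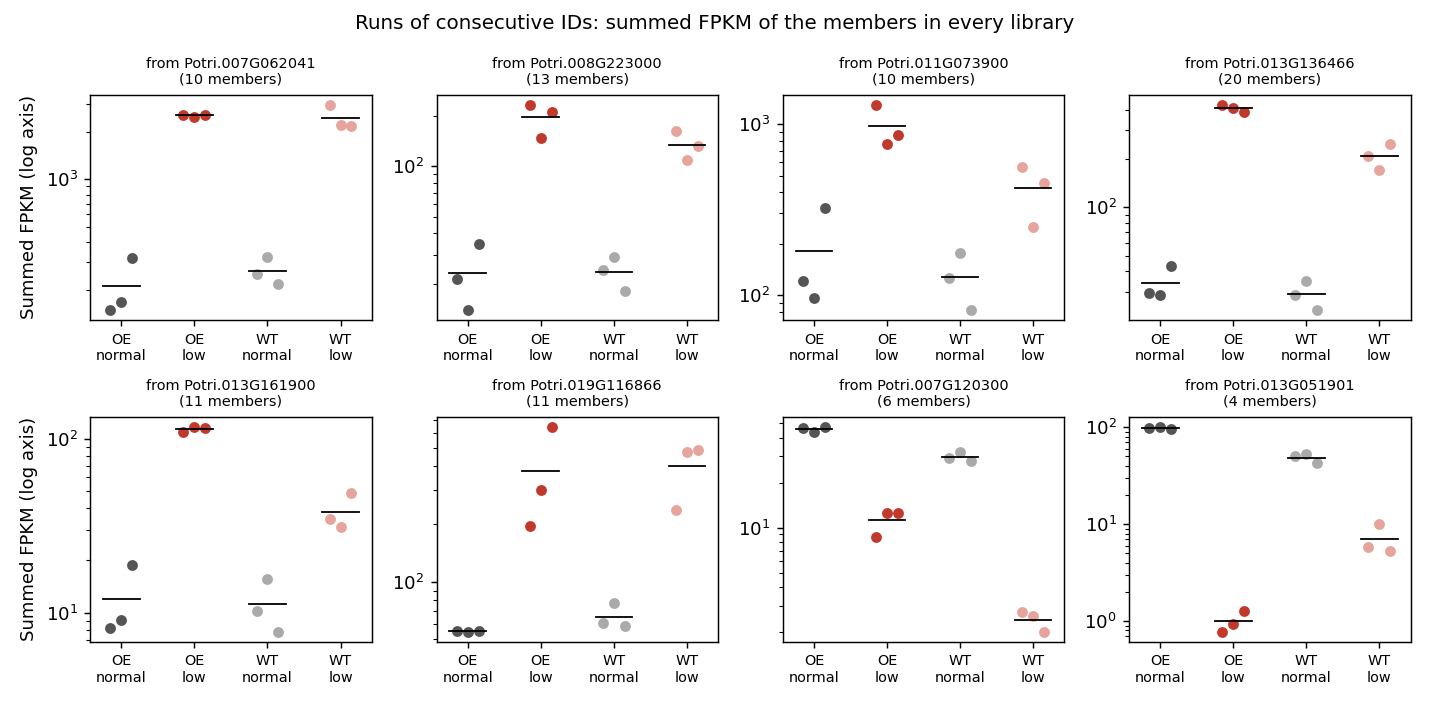
Summed FPKM (log axis, scale set for each panel) of the genes in the 6 runs of risen and the 2 longest runs of fallen IDs, consecutive among the members, for every library, with overexpression roots in dark and wild type in light colours, grey for normal N and red for low N, and bars at the group means. In each of the 6 risen runs all low-N libraries of a genotype lie above all its normal-N libraries, and in the 2 fallen runs all lie below. For overexpression roots the choice of the genes nearly fixes this.

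The fallen runs were those from Potri.007G120300 to Potri.007G120700, with 6 genes, and from Potri.013G051901 to Potri.013G052300, with 4. The first summed to 46.7, 43.7 and 47.4 FPKM under normal N and to 8.69, 12.5 and 12.6 under low N. The second summed to 98.1, 101.0 and 95.1 FPKM under normal N and to 0.78, 0.934 and 1.28 at low N, so that it was almost silent in each low-N library. In wild type the second run also fell, from between 43.1 and 52.4 FPKM to between 5.23 and 10.1. The difference between genotypes was called for all 4 of its genes and for 1 of the 6 genes of the first run, where 35.9% of all genes tested were called. Of the 75 genes in the risen runs it was called for 27 (36%), which is the background share. These 27 were unevenly spread, with 19 in the 2 runs of 013G IDs.

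Outside the long runs, neighbours resembled each other weakly. Across genes, which are not independent replicates, the log2 changes of adjacent measured IDs correlated at 0.12, and at 0.09 without the 6 runs, and IDs 20 places apart at 0.00. A gene that rose by at least 1 was followed by another such gene in 18.7% of cases, and in 16.7% without the runs, where 11.5% of genes rose by that much. Among the 19 groups of IDs by chromosome digits, the share of risen genes ran from 40.7% (017) to 52.7% (014) and that of fallen genes from 21.3% (015) to 26.1% (016). The 208 measured genes at the start of the 013G IDs, to Potri.013G032200, had a median log2 change of 0.19, near the 0.21 of all members.

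IDs with a number that is not a multiple of 100 held a larger share of strong rises, within and outside the runs; this is a description without a test. Of 1594 such members 26.2% rose by at least 1, and 23.9% of the 1546 outside the runs, against 10.7% of 21699 members with a multiple of 100. For falls of at least 1 the shares were 6.34% and 4.74%. Such IDs were also weaker, with a median of 4.43 against 9.96 FPKM, and among all members under 5 FPKM 14.3% rose by at least 1. They made up 73 of the 102 genes listed at 0 at normal N and 61 of the 143 genes that rose by at least 3. All of the 102 and 101 of the 143 passed the filter only through the low-N libraries, where they are high. These counts therefore add no support of their own.

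The response was then set beside that of wild type, with which it shares no library, and the difference between the responses was tested as an interaction. This difference was called for 8473 of the 23382 genes (36.2%), near the 35.9% of all genes tested (limma, adjusted p under 0.05). Of the 2756 genes that rose by at least 1 in overexpression roots, 2310 (83.8%) were called higher in wild type too, where 45.6% of all genes tested were higher. Of the 1131 fallen genes, 953 (84.3%) were called lower in wild type, where 23.2% of all genes tested were lower. The wild-type libraries had the same arrangement of depth by N supply, at 0.824 to 0.895 and 0.387 to 0.412, so this difference is common to both responses.

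Genes with strong responses in overexpression roots mostly shared their direction with wild type, and for part of them the size differed. The median log2 change of the 2756 risen genes was 1.31 there and 1.0 in wild type, and that of the 1131 fallen genes -1.39 and -1.07. The interaction was called for 1240 of the risen genes (45.0%), with 1042 changes more positive and 198 less positive than in wild type. It was called for 703 of the fallen genes (62.2%), 517 more negative and 186 less negative. The genes were picked for a strong change in overexpression roots, which favours a smaller one in wild type, so these counts do not measure which genotype responded more.

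A smaller number went in opposite directions. While 128 of the 2756 risen genes were called lower in wild type, 50 of the 1131 fallen genes were called higher there. The interaction was called for all 128 and all 50, which their choice for opposite calls nearly fixes. The 128 genes went from a median of 6.41 to 19.4 FPKM in overexpression roots and from 12.2 to 5.88 in wild type. In 87 of them the overexpression mean was below the wild-type mean at normal N and above it at low N. The 50 genes had medians of 17.2 and 4.48 FPKM in overexpression roots and of 10.4 and 24.8 in wild type. In 42 of them the overexpression mean went from above to below the wild-type mean. Opposite changes favour such crossings, so the 87 and the 42 follow in part from the choice of the genes. No share of opposite calls over all genes tested was taken.

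**Figure D5:**
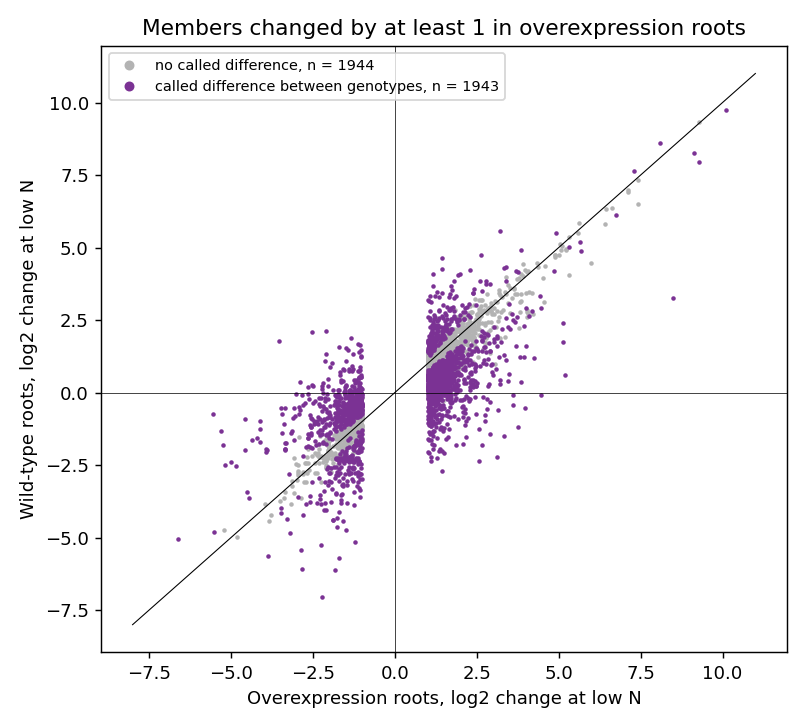
Log2 change at low N in wild-type roots (vertical axis) against that in overexpression roots (horizontal axis) for the 2756 risen and 1131 fallen genes that changed by 1 log2 unit or more in the latter, with genes whose response differed between genotypes by the interaction test in purple. Most points lie in the quadrants of shared direction, and 128 and 50 genes were called in opposite directions.

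The IDs named for the largest differences between the responses show each kind. Potri.001G288301 was at 3.36, 3.03 and 3.23 FPKM under normal N and 24.0, 32.3 and 56.2 at low N in overexpression roots, whereas in wild type it had 12.2, 11.4 and 10.6 FPKM under normal N and 3.11, 1.89 and 0.588 at low N. It rose in the former and fell in the latter, without overlap in either, and the interaction was 5.33 ± 0.478 on the log2 scale (SE; limma adjusted p = 1.3e-05). Potri.016G057600 rose in both, but in wild type to 29.4, 81.0 and 30.2 FPKM only, with an interaction of 5.22 ± 0.488 (SE; limma adjusted p = 2.53e-05).

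On the other side, Potri.002G022600 went from 60.9, 58.8 and 66.7 FPKM at normal N to 4.61, 6.31 and 2.90 at low N in overexpression roots. Its wild-type values were 8.28, 10.4 and 9.52 under normal N and 62.6, 27.5 and 23.5 under low N, so that it fell in one genotype and rose in the other. Its interaction was -5.31 ± 0.46 (SE; limma adjusted p = 1.18e-05). Potri.005G193800 fell in both genotypes, from 146.1, 151.1 and 155.0 to 2.05, 2.18 and 2.58 FPKM in overexpression roots and from 88.7, 87.6 and 76.1 to 66.0, 40.6 and 45.7 in wild type. The fall was 66.4-fold in the means of the former, and the interaction was -4.79 ± 0.199 (SE; limma adjusted p = 1.14e-08).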

How the data were processed

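Root RNA of 4 groups of 3 libraries was sequenced after CTAB extraction and a standard Illumina library protocol, per the labels' protocols. The authors deposited FPKM values, 1 column per library in 1 table. TopHat and DESeq2 appear in the submitters' processing notes, with no version or role. Build, annotation and quantifier: not given in the sources used here. Columns were matched to samples by their short label, and 0 columns of other samples were present. Members reach 1 FPKM in 3 or more overexpression libraries.

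All 24570 genes that reach 1 FPKM in 3 or more of the 12 libraries were taken to log2(FPKM + 1) and fitted with limma 3.58.1 in R 4.3.3 (1 mean per group, eBayes with trend and robust estimation, 8 residual degrees of freedom). P-values were Benjamini-Hochberg adjusted over all of them, with a threshold of 0.05. A count model was not used, since FPKM are not counts. The fit was tested on simulated data. The labels do not say that replicates came from separate cultures, so p-values measure only the spread between these libraries, which may be technical in part.

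Named IDs are the 2 risen and 2 fallen with the largest difference of mean FPKM, called and without overlap, and the 2 with the most positive and the 2 with the most negative called interaction, without overlap and with at least 5 FPKM in the higher overexpression group. Gene lists by function could not be run without gene names. The members, lists and rules were chosen with earlier results of these data known. Depth was inferred from the most frequent ratio among 5165 genes with at most 0.15 FPKM in every library. Alternatives were a replicate block, 2 other scalings, other filters, a pseudocount of 0.1, weighted libraries, plain eBayes, the 6 overexpression libraries fitted alone, a test against a minimum fold and the removal of each library in turn. Replicate libraries shared at most 0.509% identical values and correlated at 0.975 to 0.996 (Pearson, log2 values over the members).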

Additional observations from a re-analysis of the deposited data

Results flagged for a closer look

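The response to low N differed between overexpression and wild-type roots, by the interaction test in limma, for 6 of the 8 IDs named. The difference, overexpression minus wild type on the log2 scale, was 5.33 for Potri.001G288301, 5.22 for Potri.016G057600, 0.56 for Potri.019G100001, -2.94 for Potri.014G103000, -4.79 for Potri.005G193800 and -5.31 for Potri.002G022600. Of these, 4 had been named for the size of this difference. Potri.014G103000 had been singled out for its level against wild type, and Potri.019G100001 for its fall in overexpression roots. Those values enter the same difference, so the count of 6 follows in part from the choice. Over all genes tested the difference was called for 35.9%. For Potri.019G100001 the call was lost after quantile normalization, with 0.44 and a limma adjusted p of 0.0971, and over leaving out each overexpression library in turn the difference ran from 0.53 to 0.60. It was not called for Potri.010G236500, which fell in both genotypes, nor for Potri.013G131200, with 0.29 and a limma adjusted p of 0.118. For the latter it was called with library weights (limma adjusted p = 0.0416) and without low-N replicate 3 (0.39, limma adjusted p = 0.015).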

How the results depend on the processing

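The count of genes that changed in overexpression roots fell from 16628 to 6153 (4356 risen, 1797 fallen) when a change beyond 0.5 on the log2 scale was tested for, which a stricter hypothesis brings with it. Under the other settings it stayed within 1.5 times the reported count, as did the counts of risen and fallen genes and of differences between genotypes. Leaving out each overexpression library in turn gave 15349 to 16334 changed genes, 10304 to 11055 risen, 5004 to 5472 fallen and 7229 to 8647 differences between genotypes. Median-of-ratios scaling gave 8027 risen and 8190 fallen genes, and quantile normalization 7913 and 8082. No shared deviation by replicate number was seen: deviations of same-numbered overexpression libraries correlated at 0.00, 0.00 and -0.03, and a replicate block gave 16459 changed genes. This does not show whether same-numbered libraries were paired in culture or handling. Of the alternative values for named IDs, 222 kept direction and side of the threshold, 4 lost the call, 4 gained one, 1 uncalled value became 0 under quantile normalization (Potri.013G131200, difference between genotypes) and 1 changed direction, the uncalled difference between genotypes for Potri.010G236500, which ran from -0.12 to 0.0156 as libraries were left out. The cause was not tested. Without absolute depth, precision of genes near 1 FPKM is unknown, and it is lower at low N.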
